A study of Mus musculus with 18 samples.

Results

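The genes described here are the tRNA synthetases of mouse macrophages, 20 cytosolic and 16 mitochondrial enzymes named by symbol. Members were the 36 gene symbols of a given list, and a gene counted as mitochondrial when its symbol ends in 2. Gars and Kars, whose single genes supply both compartments, were counted with the cytosolic enzymes. Of the 36 symbols, 35 were among the 11547 genes tested, 19 cytosolic and 16 mitochondrial. Dars was not analysed here. RAW264.7 is a mouse macrophage line transformed with Abelson leukaemia virus, so every group was one established cell line in culture. Cells received solvent (0.1% DMSO, called vehicle), a Hypericum perforatum (St John's wort) sub-fraction at 10 ug/mL (called fraction), or a mixture of 4 of the plant's compounds. Its components were amentoflavone (0.07 uM), quercetin (0.08 uM), chlorogenic acid (0.2 uM) and pseudohypericin (0.03 uM). The labels give a DMSO content for the vehicle groups alone, so whether the solvent was matched is not known. Each of these was given without or with lipopolysaccharide (LPS), the bacterial ligand of Toll-like receptor 4, at 10 ug/mL for 8 h. All groups shared the application in the dark and 30 min of ambient light that followed. Expression was read on Affymetrix mouse genome arrays, 3 per group and 18 in all.

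A tRNA synthetase joins one amino acid to the tRNAs that decode it, and so supplies every round of translation. Mammalian cells keep separate enzymes, from separate nuclear genes, for the cytosol and for the mitochondrial matrix, with a few genes serving both. When the kinases that phosphorylate eIF2 alpha are active, general translation falls while the transcription factor ATF4 is made, and ATF4 is known to switch on genes for amino acid synthesis and import and for many cytosolic synthetases. In macrophages some synthetases have further roles: Wars is an interferon-inducible gene, and Eprs, which charges both glutamate and proline tRNAs, also takes part in translational control of inflammatory messages.

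Promoter stretches are shown first because ATF4 binds a known element, whose core can be looked for in these genes. Windows of 300 bases, 250 before and 50 after the start, came from RefSeq (GRCm38.p6). The core of the C/EBP-ATF composite element was searched on both strands as TGATGNAA, of which TGATGCAA is one form, so the matches of the second are counted in the first. Of all 32851 windows, 3.97% held TGATGNAA and 0.895% held TGATGCAA. A window was found for 12 tested cytosolic genes, and 5 of them (41.7%) held a match, 4 in the form TGATGCAA. Those 5 were Aars, Gars, Tars, Iars and Yars, and Aars held another match 10 bases after its start. The 14 mitochondrial genes with a window held 0 matches. The stretches of the 5 matching windows follow, 5′ to 3′ on the strand of the gene, with the match in capitals.
Aars: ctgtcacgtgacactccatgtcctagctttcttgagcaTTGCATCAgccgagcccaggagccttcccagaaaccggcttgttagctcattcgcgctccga
Gars: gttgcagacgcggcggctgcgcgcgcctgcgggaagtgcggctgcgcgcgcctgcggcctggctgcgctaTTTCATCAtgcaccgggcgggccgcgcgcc
Tars: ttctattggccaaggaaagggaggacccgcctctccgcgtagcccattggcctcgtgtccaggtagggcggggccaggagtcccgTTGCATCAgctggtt
Iars: tggcactgtcagtaTTGCATCAcctccaga
Yars: cgacgagctcagcTGATGCAAcccgacggg
Aars lies at chr8:111033692-111033791 (plus strand), and the match begins 112 bases before its start. The Gars stretch is chr6:55037901-55038000 (plus strand), with the match beginning 30 bases before the start. Tars is shown at chr15:11399659-11399758 (minus strand), with the match beginning 15 bases before the start. The Iars and Yars matches lie after the start, and the stretches shown are chr13:49682123-49682152 and chr4:129189893-129189922, both on the plus strand. A match describes letters in the window and is no measurement of binding.

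Signals are linear MAS5 intensities in arbitrary units, scaled by the authors so that each array had a trimmed mean of 500.0. Array medians lay between 52.1 and 66.8, and arrays of a group correlated at 0.927 to 0.942 over all probe sets. All 35 synthetases passed the filter on low signals, and 34 reached the array median on all 18 arrays. Mars2, at 1.32 times the array median in its lowest group, was the dimmest. The number of arrays limits the precision of every value. Whether the 3 arrays of a group stand for separate cultures is not given in the labels. Each p-value rests on the variation between arrays of a group, pooled over the 6 groups and moderated over genes. That variation may be technical. All 9 macrophage markers were at or above the array median on all 18 arrays. Of 18 markers of other cell types 0 were, and 9 (among them Cd3g, Cd4, Krt18, Pecam1 and Col1a1) reached it on 0 arrays. In bulk RNA, fewer cells of a kind and less RNA per cell cannot be told apart.

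The fraction was compared with vehicle to ask what this plant material does to resting macrophages. Cytosolic synthetases rose together: 12 of 19 were higher after the fraction and 0 were lower. Aars, Cars, Sars, Wars and Nars rose most, by 1.83- to 2.54-fold, and Rars, Lars, Eprs, Gars, Iars, Tars and Mars1 rose by 1.36- to 1.72-fold. Over all genes tested, 15.9% were called higher and 15.3% lower (1837 and 1771 genes, but 938 and 1959 with arrays centred on the median of all probe sets). The median log2 difference of the 19 cytosolic genes was 0.70, against 0.02 over all genes. Mitochondrial synthetases as a class showed no such rise, with 1 of 16 higher, 1 lower and a median of 0.05. They were also dimmer: lowest group means were 1.32 to 20.8 times the array median, against 21.3 to 159.6 times for cytosolic genes. Class and signal strength cannot be told apart in this contrast. Calls are from limma with Benjamini-Hochberg adjusted p under 0.05 over all genes.

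**Figure D1:**
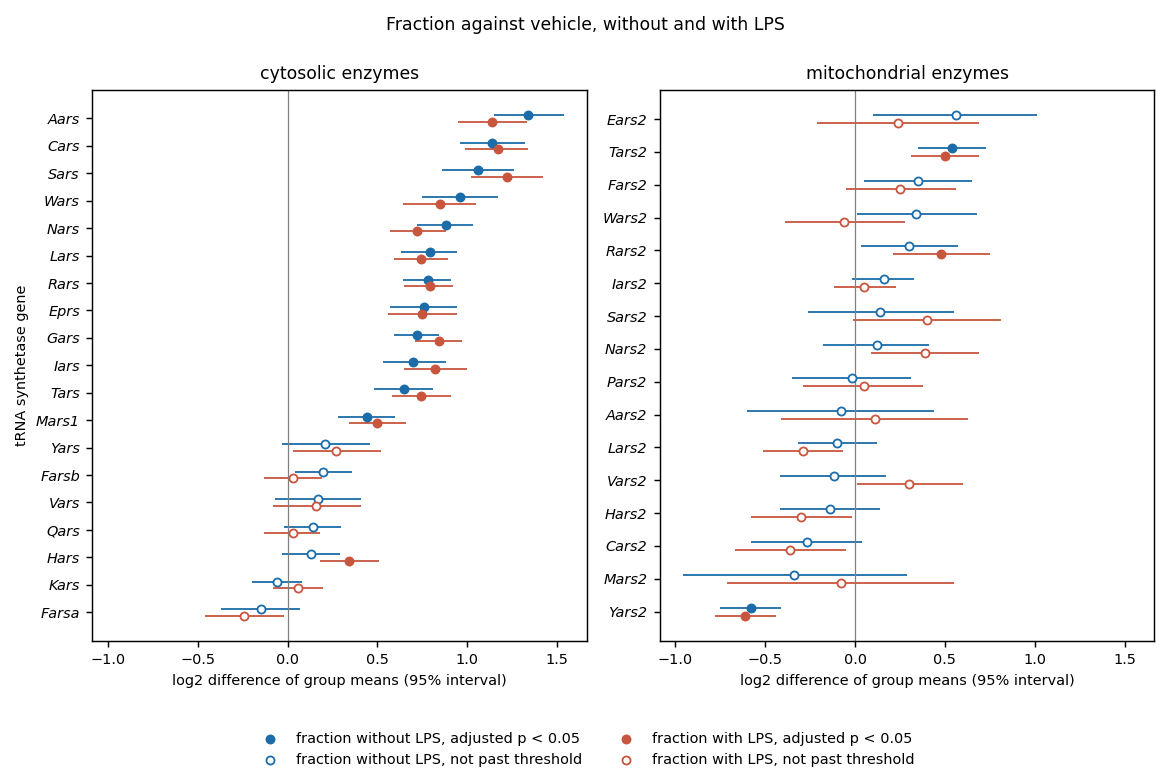
Log2 difference between fraction and vehicle (x axis) for each tRNA synthetase gene (y axis), cytosolic on the left and mitochondrial on the right, without LPS in blue and with LPS in red; lines are 95% intervals and filled points are past the threshold. The 12 cytosolic genes called without LPS lie between 0.44 and 1.34, and of the mitochondrial genes Tars2 lies above 0 and Yars2 below 0 in both states.

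Aars charges tRNA with alanine, and its signals were 2611, 2559 and 2279 on the vehicle arrays and 6130, 6927 and 5868 after the fraction. Every fraction array was above every vehicle array, and the lowest fraction signal was more than double the highest vehicle one. The rise was 1.34 ± 0.091 on the log2 scale (standard error; adjusted p = 2.4e-09), or 2.54-fold. Cars, for cysteine, gave 1690, 1626 and 1323 in vehicle and 3324, 3417 and 3413 after the fraction. The 3 fraction arrays lay close together and clear of the controls, a rise of 1.14 ± 0.085 (2.20-fold, adjusted p = 7.3e-09). Sars, for serine, had signals of 6061, 7296 and 6635 in vehicle and of 13200, 14049 and 14375 after the fraction. The groups did not overlap, and the rise was 1.06 ± 0.10 (2.09-fold, adjusted p = 8.8e-08).

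Wars, the interferon-inducible tryptophan enzyme, had 2094, 2233 and 1881 on the vehicle arrays against 4168, 4365 and 3565 after the fraction. Its lowest fraction array was well above its highest vehicle array, with a rise of 0.96 ± 0.10 (1.95-fold, adjusted p = 4.8e-07). LPS brought no called change in Wars at 8 h in any of the 3 treatments, and its probe set is of a type open to cross-hybridization. Nars, for asparagine, gave 8989, 8485 and 9056 in vehicle and 14736, 16123 and 17936 after the fraction. The fraction arrays were spread more widely than the controls but stayed above all of them, a rise of 0.88 ± 0.073 (1.83-fold, adjusted p = 2.9e-08).

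The enzymes with joint or unusual roles did not all behave alike. Gars, which charges glycine tRNA in both compartments, had signals of 5806, 6356 and 6183 in vehicle and 9861, 10295 and 9987 after the fraction. The rise, 0.72 ± 0.060 (1.64-fold, adjusted p = 3.5e-08), put all fraction arrays above all controls. Kars, the lysine enzyme that also serves both compartments, had 4102, 4170 and 4566 in vehicle and 4030, 3990 and 4263 after the fraction. The Kars groups overlapped, with a log2 difference of -0.06 and a 95% interval from -0.20 to 0.08 (adjusted p = 0.53). Eprs gave 4943, 4039 and 4867 in vehicle and 7946, 7595 and 7758 after the fraction. All 3 fraction arrays were above the controls, a rise of 0.76 ± 0.090 (1.69-fold, adjusted p = 2.9e-06).

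**Figure D2:**
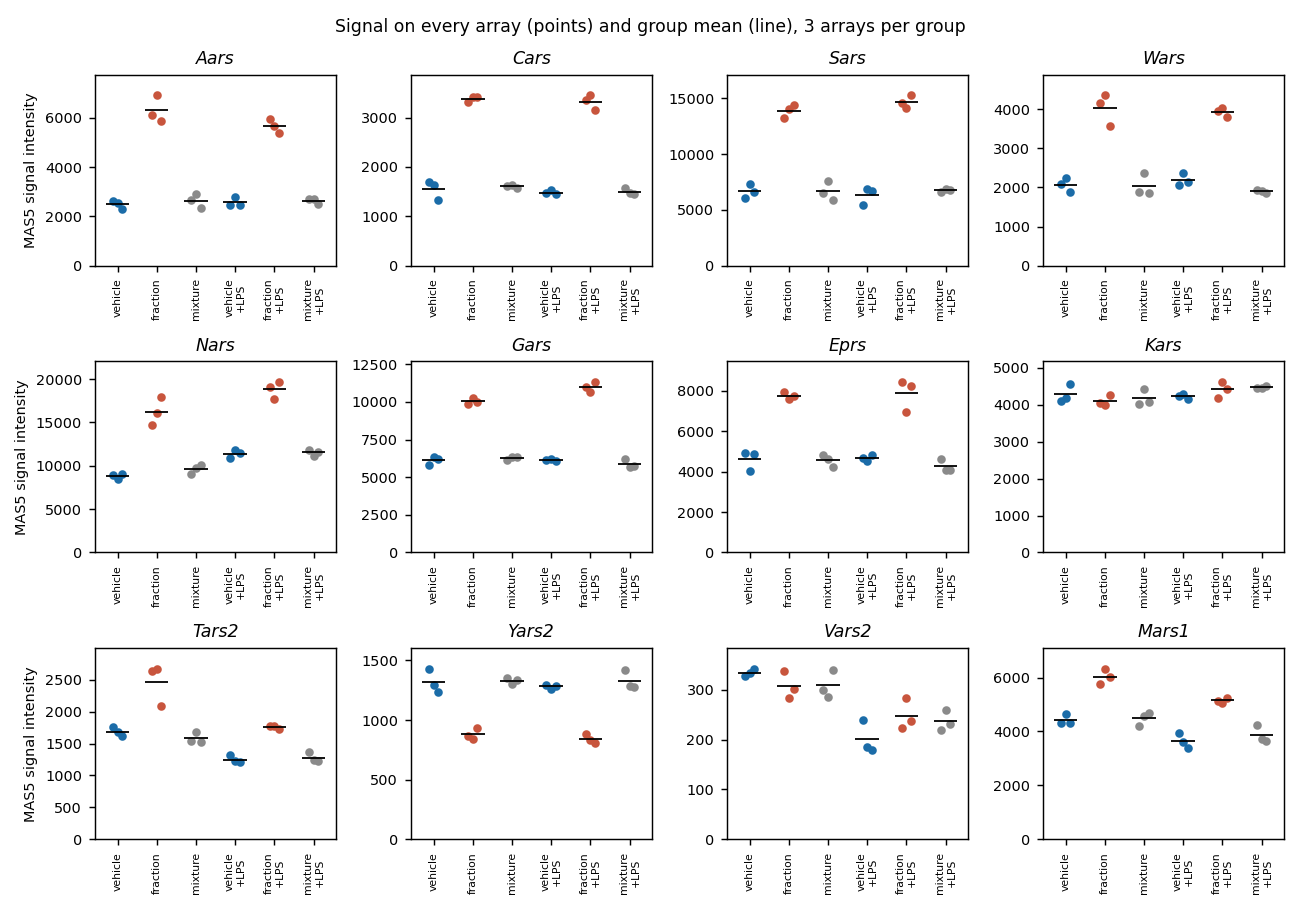
MAS5 signal intensity (y axis, linear, from 0) on each of the 3 arrays (points) of the 6 groups (x axis) for 12 synthetase genes, with the group mean as a line; vehicle blue, fraction red, mixture grey. Aars, Cars, Sars, Wars, Nars, Gars, Eprs and Mars1 stand higher in both fraction groups than in the vehicle group of the same LPS state, Kars does not, and Yars2 stands lower.

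Other risers included several members of the multisynthetase complex, the particle that holds a set of cytosolic synthetases together on scaffold proteins. Rars (arginine) rose by 0.78 ± 0.065 on the log2 scale, Lars (leucine) by 0.79 ± 0.073 and Iars (isoleucine) by 0.70 ± 0.082. Mars1 (methionine) rose least of the 12, from 4325, 4662 and 4330 in vehicle to 5746, 6325 and 6014, a log2 difference of 0.44 ± 0.077 (adjusted p = 2.1e-04). Its groups did not overlap, but with arrays centred on the median of all probe sets the adjusted p of Mars1 was 0.068. Within the complex 5 of 7 synthetases were called higher, with a median of 0.70, and outside it 7 of 12, with a median of 0.68. By catalytic fold, 7 of 10 class I and 5 of 9 class II enzymes were called higher. Eprs, which charges both glutamate and proline tRNAs, was counted in class I alone. Without Gars and Kars the cytosolic count was 11 of 17. The rise was therefore spread over both complex and free enzymes and over both folds, and differences between these subgroups were not tested.

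Of the 7 cytosolic genes not past the threshold, 5 had a positive difference, and the log2 differences ran from -0.15 to 0.21. They were Kars and the enzymes for phenylalanine (Farsa and Farsb, the 2 subunits of one enzyme), histidine (Hars), glutamine (Qars), valine (Vars) and tyrosine (Yars). Their 95% intervals spanned -0.37 to 0.46, so the interval of each ended below the estimates for Aars, Cars, Sars, Wars and Nars. Farsb was nearest to the threshold, at 0.20 ± 0.076 (adjusted p = 0.052). It was past it without fraction replicate 2 and in 3 other settings. Farsa became past the threshold, as lower, without vehicle replicate 3, with an adjusted p of 0.017. The sign of Farsa and of Qars depended on the probe set: with the mean of all kept probe sets they were 0.04 and -0.06. Of the called members with several kept probe sets, 9 of 9 had every probe set called the same way without LPS and 7 of 10 with LPS, where Cars, Hars and Yars2 each had a probe set that was not called. After LPS it was 3 of 7 in vehicle, 2 of 8 in fraction-treated and 1 of 5 in mixture-treated cells, and 0 members had probe sets called in opposite directions in any comparison.

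Promoter matches and the rise overlapped in part. Of the 5 cytosolic genes with a TGATGNAA match, 4 (Aars, Gars, Tars and Iars) were called higher without LPS and Yars was not. Eprs, Sars and Mars1 were called higher with 0 matches in the window, and Farsa, Farsb, Kars and Qars had neither. Only 7 of the cytosolic genes called higher had a window. No window was found for Cars, Lars, Nars, Rars and Wars, which were also called higher and were not searched. Tars2, the mitochondrial riser, had a window and 0 matches. These counts are descriptions of 12 and 14 genes with no test.

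Among mitochondrial synthetases, the threonine and tyrosine enzymes moved in opposite directions. Tars2 had signals of 1759, 1676 and 1622 in vehicle and 2628, 2670 and 2085 after the fraction, a rise of 0.54 ± 0.091 (1.45-fold, adjusted p = 1.6e-04). One fraction array was lower than the other two but still above all controls. Yars2 had 1430, 1291 and 1239 in vehicle and 869, 843 and 931 after the fraction. All fraction arrays lay below all controls, a log2 difference of -0.58 ± 0.081 (1.50-fold lower, adjusted p = 2.0e-05). The other 14 mitochondrial genes ranged from -0.34 to 0.56, 7 of them positive, with 95% intervals spanning -0.96 to 1.01. The widest of these intervals include the cytosolic median of 0.70. Ears2 was the highest of the 14, at 0.56 ± 0.22 (adjusted p = 0.058), and its groups did not overlap. Without fraction replicate 3, 4 mitochondrial genes were called, 3 higher and 1 lower.

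For 13 amino acids both a cytosolic and a mitochondrial enzyme were measured under matching symbols. The cytosolic log2 difference exceeded the mitochondrial one in 13 of 13 pairs without LPS and in 12 of 13 with LPS, where Vars was at 0.16 and Vars2 at 0.30, neither past the threshold. For LPS in vehicle cells it did so in 9 of 13. For the fraction without LPS, in 10 pairs the cytosolic gene was called higher, and in 1 of those 10, Tars with Tars2, the mitochondrial gene was called higher too. Tars (4285, 4775 and 4576 in vehicle, 6999, 7390 and 6955 after the fraction) rose by 0.65 ± 0.078, close to the 0.54 of its partner. Yars and Yars2 parted: Yars was at 0.21 ± 0.12 (adjusted p = 0.19) while Yars2 fell. The gap between class medians (cytosolic minus mitochondrial) was 0.66, and 0.55 to 0.81 over 18 alternative settings. The gap is a description, with no test over the genes, and class and signal strength cannot be told apart in it.

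**Figure D3:**
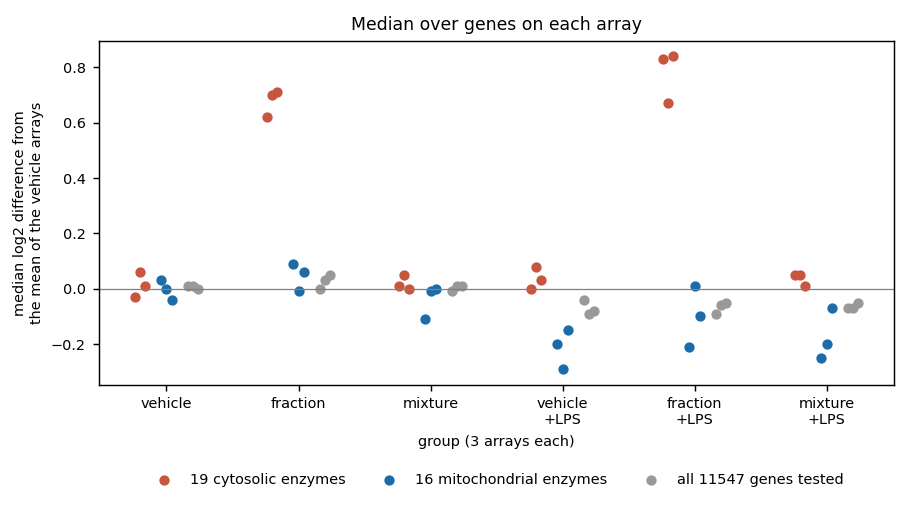
Median over the 19 cytosolic, the 16 mitochondrial and all 11547 tested genes of the log2 difference from the mean of the vehicle arrays (y axis), for each of the 3 arrays of the 6 groups (x axis). The cytosolic medians are 0.62 to 0.71 on the fraction arrays and 0.67 to 0.84 on the fraction arrays with LPS, and between -0.03 and 0.08 on all other arrays.

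The same question was asked in LPS-treated cells, on other arrays, since the comparisons of the fraction without and with LPS share none. Cytosolic synthetases rose again, 13 of 19 called higher and 0 lower, and Sars, Cars and Aars rose most. Over all genes 11.1% were called higher and 12.7% lower, and the median log2 difference was 0.74 for cytosolic genes and -0.02 for all genes. All 12 genes called without LPS were among the 13, and Hars was the other. Mitochondrial genes again moved little as a class, with Tars2 and Rars2 higher, Yars2 lower, and a median of 0.08. The gap between class medians was 0.66, and 0.49 to 0.77 over 18 alternative settings.

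Sars had 5468, 6846 and 6682 with LPS alone and 14576, 14115 and 15293 with LPS and fraction. Its lowest fraction array was more than double its highest control, a rise of 1.22 ± 0.10 (2.33-fold, adjusted p = 3.5e-08). Cars gave 1468, 1527 and 1443 with LPS alone and 3353, 3458 and 3158 with the fraction added. The groups were far apart, with a rise of 1.17 ± 0.085 (2.25-fold, adjusted p = 1.3e-08). Aars had 2470, 2776 and 2459 against 5958, 5678 and 5377, a rise of 1.14 ± 0.091 (2.21-fold, adjusted p = 4.0e-08). Its fraction arrays all exceeded its controls, as they did without LPS.

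Wars stood at 2055, 2366 and 2150 with LPS alone and at 3952, 4034 and 3809 with the fraction. No array of one group reached the other, and the rise was 0.85 ± 0.10 (1.80-fold, adjusted p = 4.6e-06). Gars had 6151, 6187 and 6105 against 11021, 10674 and 11336, a rise of 0.84 ± 0.060 (1.79-fold, adjusted p = 1.1e-08). Its control arrays were within a narrow band. Kars remained near its controls, at 4225, 4295 and 4156 against 4189, 4614 and 4429. The Kars groups overlapped, with a log2 difference of 0.06 and a 95% interval from -0.08 to 0.20 (adjusted p = 0.57). Eprs gave 4674, 4512 and 4801 against 8444, 6954 and 8229, a rise of 0.75 ± 0.090 (1.68-fold, adjusted p = 6.0e-06). One of its fraction arrays was lower than the rest and still above every control.

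Iars, read by a probe set open to cross-hybridization, rose from 5106, 5651 and 5873 to 9474, 9972 and 9947, which is 0.82 ± 0.082 (1.77-fold, adjusted p = 5.8e-07). Nars rose from 10896, 11783 and 11503 to 19070, 17725 and 19686, by 0.72 ± 0.073 (1.65-fold, adjusted p = 6.6e-07). Both were clear of their controls on every array. Hars, the histidine enzyme, had 7684, 7548 and 6781 against 9676, 9125 and 9098, a rise of 0.34 ± 0.077 (1.27-fold, adjusted p = 0.0029). Without LPS the Hars difference was 0.13 ± 0.077 (adjusted p = 0.24), and the test of the difference between the LPS states gave 0.22 ± 0.11 (adjusted p = 0.40). With arrays centred on the median of all probe sets, the adjusted p of Hars with LPS was 0.057.

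Of the mitochondrial genes, Tars2 had 1315, 1224 and 1203 with LPS alone and 1770, 1779 and 1732 with the fraction, a rise of 0.50 ± 0.091 (1.41-fold, adjusted p = 5.3e-04). Both groups were tight and apart. Yars2 had 1294, 1262 and 1289 against 879, 836 and 807, which was 1.53-fold lower (log2 -0.61 ± 0.081, adjusted p = 2.1e-05). It was lower on every fraction array than on every control, as without LPS. Rars2, for mitochondrial arginine, gave 1345, 1207 and 1242 against 1849, 2029 and 1458, a rise of 0.48 ± 0.13 (1.39-fold, adjusted p = 0.010). Its call was lost without replicate 2 of fraction with LPS and with centring on all probe sets, with an adjusted p of up to 0.059. The other 13 mitochondrial genes ran from -0.36 to 0.40. Without replicate 1 of vehicle with LPS, or of fraction with LPS, 5 mitochondrial genes were called.

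Whether the fraction acted differently without and with LPS was tested as an interaction, which uses the arrays of 4 groups. Of the 35 synthetases 0 were called, against 2.14% of all genes (0.892% positive and 1.25% negative). Cytosolic interaction values ran from -0.20 to 0.22, with 0 at an unadjusted p under 0.05, and mitochondrial ones from -0.40 to 0.43, with 1 (Vars2). Over all genes 13.6% had an unadjusted p that low, and 103 genes were called positive and 144 negative. With centring on all probe sets it was 58 and 28, and with a replicate block 198 and 269. For the 12 cytosolic genes called without LPS, the 95% intervals spanned -0.47 to 0.44, and changes in their rise within that span were not resolved by these arrays. Several regulators of the stress response did pass this test. Ddit3 (CHOP) rose less with LPS, with an interaction of -2.10 ± 0.32 (adjusted p = 0.0016), and Trib3 had -1.44 ± 0.23 (adjusted p = 0.0023).

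**Figure D4:**
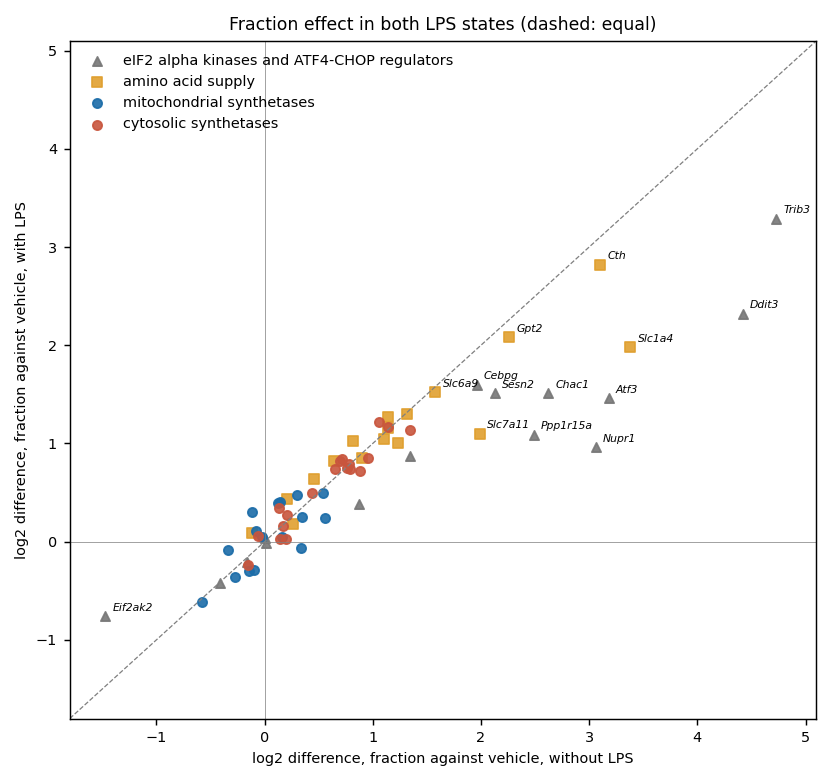
Log2 difference between fraction and vehicle without LPS (x axis) and with LPS (y axis) for cytosolic synthetases (red), mitochondrial synthetases (blue), amino acid supply genes (yellow squares) and eIF2 alpha kinases with ATF4-CHOP regulators (grey triangles); the dashed line marks equal values. The synthetases lie near that line, while Trib3 (4.73 and 3.29), Ddit3 (4.42 and 2.32) and Slc1a4 (3.38 and 1.98) lie below it.

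LPS was compared with no LPS in vehicle cells to give the inflammatory response by itself, on vehicle arrays that the fraction comparisons also use. Cytosolic synthetases changed little, 2 of 19 higher (Nars and Rars) and 1 lower (Mars1), with a median log2 difference of 0.05. Of the mitochondrial synthetases 6 of 16 were called lower and 1 higher (Fars2) in the deposited scaling, with a median of -0.27, but with arrays centred on the median of the tested genes 2 were called lower and 2 higher. Over all genes 10.1% were called higher and 21.8% lower, with a median of -0.07. Under that centring 10 cytosolic genes were called higher and 0 lower, and the calls over all genes turned from 1161 higher and 2519 lower to 2366 and 1351, as the median of all genes moved from -0.075 to 0.111. Directions after LPS are therefore relative to the scaling, and the gap between class medians, 0.31 here, ran from 0.12 to 0.34 over 18 alternative settings. The gap after LPS was 0.24 in fraction-treated cells (-0.00 to 0.40) and 0.08 in mixture-treated cells (-0.01 to 0.18), lowest with quantile normalization in both. The summed signal of the 9 macrophage markers was 77321 to 91279 on the vehicle arrays and 97099 to 104614 with LPS, and that of the 18 markers of other cells 377 to 498 and 552 to 770.2. The part of these shifts in the synthetase values was not tested.

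Vars2, for mitochondrial valine, fell most: signals were 327, 334 and 342 in vehicle and 239.9, 186 and 179.9 with LPS. The groups did not overlap, and LPS arrays were 1.67-fold lower (log2 -0.74 ± 0.14, adjusted p = 4.3e-04). Pars2, for mitochondrial proline, had 292, 344 and 298 against 223, 179 and 234, or 1.47-fold lower (log2 -0.56 ± 0.16, adjusted p = 0.011). All its LPS arrays were below its controls, though the call was lost without replicate 2 of vehicle or of vehicle with LPS. Cars2, for mitochondrial cysteine, had 468, 419.6 and 369 against 318, 269 and 319, or 1.38-fold lower (log2 -0.47 ± 0.15, adjusted p = 0.020). The Cars2 call was lost under 7 of 17 alternatives. Among them were the removal of replicate 1 or 2 of vehicle or replicate 2 of vehicle with LPS, quantile normalization and the mean of kept probe sets. Over the alternatives its log2 difference ran from -0.6 to -0.12, with an adjusted p of up to 0.75. Tars2 had 1759, 1676 and 1622 against 1315, 1224 and 1203, or 1.35-fold lower (log2 -0.43 ± 0.091, adjusted p = 0.0011). The call of Tars2 held under all 18 alternatives run, and that of Vars2 under the 17 that tested it, since the 75th percentile filter left it out.

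Lars2 (log2 -0.38 ± 0.10, adjusted p = 0.0088) and Iars2 (-0.28 ± 0.083, adjusted p = 0.013) were the other mitochondrial genes called lower. The Lars2 call was lost without replicate 3 of vehicle with LPS, and that of Iars2 without replicate 1 of vehicle or 2 of vehicle with LPS. Fars2, for mitochondrial phenylalanine, was called higher (0.42 ± 0.14, adjusted p = 0.031), from 799.6, 1140 and 816 to 1185, 1369 and 1105. Its groups overlapped, and the call was lost without replicate 1 or 3 of vehicle or 2 of vehicle with LPS. Without replicate 1 of vehicle the mitochondrial genes had 4 calls, all lower, and without replicate 2 of vehicle with LPS 3, all lower.

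On the cytosolic side, Nars had 8989, 8485 and 9056 in vehicle and 10896, 11783 and 11503 with LPS, a rise of 0.37 ± 0.073 (1.29-fold, adjusted p = 6.8e-04). Its LPS arrays were all above its controls. Rars had 7384, 7432 and 7925 against 8993, 9469 and 8575, a rise of 0.25 ± 0.065 (1.19-fold, adjusted p = 0.0056). Mars1 had 4325, 4662 and 4330 against 3926, 3621 and 3391, or 1.22-fold lower (log2 -0.29 ± 0.077, adjusted p = 0.0075). The groups of Rars and of Mars1 did not overlap either. Each of the 3 calls was lost under 1 or more changes of scaling, Nars and Rars with centring on all probe sets and Mars1 with centring on the tested genes. The other 16 cytosolic genes ran from -0.24 to 0.20.

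**Figure D5:**
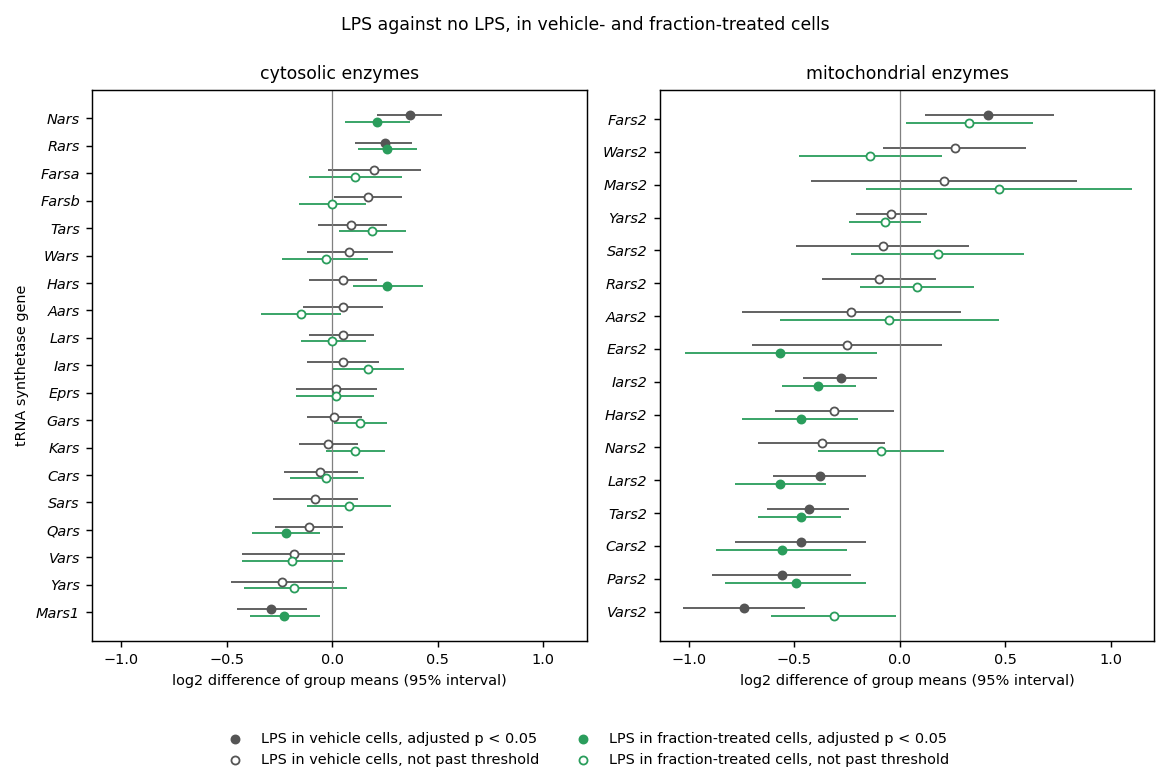
Log2 difference between LPS and no LPS (x axis) for each synthetase gene (y axis), cytosolic on the left and mitochondrial on the right, in vehicle cells (grey) and fraction-treated cells (green); lines are 95% intervals and filled points are past the threshold. Mitochondrial genes lie mostly below 0, with medians of -0.27 and -0.23, and cytosolic ones around 0, with medians of 0.05 and 0.02.

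In fraction-treated cells, LPS lowered 7 of 16 mitochondrial genes and raised 0, with a median of -0.23, but under centring on the tested genes 2 were lower and 1 higher. Lars2 (log2 -0.57 ± 0.10, adjusted p = 2.4e-04), Tars2 (-0.47 ± 0.091, adjusted p = 3.8e-04) and Iars2 (-0.39 ± 0.083, adjusted p = 0.0011) had the smallest adjusted p. The other genes called lower were Cars2, Hars2, Pars2 and Ears2, and the Ears2 call (adjusted p = 0.046) was lost under 12 of 17 alternatives, among them the removal of any of its 6 arrays. Hars, Nars and Rars were called higher by 0.21 to 0.26, and Mars1 and Qars lower, by log2 differences of -0.23 and -0.22. The calls of Mars1 and Qars were each lost without replicate 2 or 3 of fraction or 1 or 2 of fraction with LPS, and that of Nars without replicate 1 or 2 of fraction or 1 or 3 of fraction with LPS. Those removals left 2 to 4 cytosolic calls. Over all genes 11.5% were called higher and 25.8% lower. Under centring on the tested genes 9 cytosolic genes were called higher and 0 lower, and over all genes 1330 higher and 2979 lower became 2582 and 1694.

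In mixture-treated cells, LPS was followed by 1 higher (Fars2) and 3 lower (Cars2, Iars2 and Tars2) mitochondrial genes, but under centring on the tested genes 2 were higher and 0 lower. Of the cytosolic genes Iars and Nars were called higher and Mars1 lower, and over all genes 8.32% were higher and 16.3% lower. The median was -0.07 for mitochondrial genes, as it was for all genes, whose 961 higher and 1883 lower calls became 1689 and 1092 under that centring. Without replicate 2 of mixture with LPS, 1 cytosolic and 2 mitochondrial genes were called, and without replicate 2 of mixture or 3 of mixture with LPS, 1 cytosolic gene was.

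The mixture was compared with vehicle to ask whether 4 named compounds, at their own doses, change the same genes. Of the 35 synthetases 0 were called by limma without LPS and 0 with LPS, as were 0 of all genes. Without replicate 1 of vehicle with LPS, 91 genes were called higher and 100 lower with the mixture and LPS, and without the 6 arrays numbered 1 it was 13 and 50, with 0 synthetases among them in either case. At an unadjusted p under 0.05, 0 cytosolic and 0 mitochondrial genes were below it without LPS, and 2 and 1 with LPS, against 4.89% and 8.09% of all genes. Aars had 2659, 2892 and 2325 with the mixture and 2716, 2713 and 2489 with mixture and LPS, each group overlapping its control. Cytosolic differences ran from -0.15 to 0.16 without LPS and from -0.20 to 0.26 with LPS. For the 12 cytosolic genes that rose with the fraction, the 95% intervals under the mixture reached from -0.32 to 0.28 without LPS and from -0.40 to 0.30 with LPS. The highest of these bounds is below the smallest fraction estimate among the 12, 0.44 for Mars1 without LPS. The 95% interval of that estimate ran from 0.28 to 0.60, and so reached below the highest bound, 0.30 with LPS. The fraction and mixture comparisons share the vehicle arrays, and the difference between fraction and mixture was not tested.

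The wider pathway was read from fixed lists that were chosen with earlier results of these data known. Their counts are descriptions and no independent support. Of 15 eIF2 alpha kinases and ATF4-CHOP regulators, 10 were higher and 2 lower after the fraction without LPS, with a median of 1.96. Over all genes 15.9% were higher and 15.3% lower without LPS, and 11.1% and 12.7% with LPS. Atf4 itself had 4985, 5891 and 5543 in vehicle and 12600, 14355 and 14624 after the fraction, a rise of 1.34 ± 0.086 (adjusted p = 1.1e-09). Its fraction arrays all stood above its controls. Trib3, an ATF4-CHOP target that restrains AKT, rose by 4.73 ± 0.16, Ddit3 by 4.42 ± 0.23, Atf3 by 3.18 ± 0.24 and Nupr1 by 3.06 ± 0.16. Of the kinases themselves, 2 fell, Eif2ak2 (PKR) with a log2 difference of -1.47 ± 0.12 and Eif2ak1 (HRI) with -0.41 ± 0.11 (adjusted p = 0.0067), and both were also the 2 called lower with LPS. With LPS 9 regulators were higher and 2 lower, led by Trib3 (3.29 ± 0.16), Ddit3 (2.32 ± 0.23), Cebpg (1.60 ± 0.11) and Chac1 (1.51 ± 0.22).

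Amino acid supply moved in the same direction as the cytosolic synthetases. Its list was drawn up as ATF4 targets, also with earlier results of these data known. Of 17 tested genes for synthesis and import, 16 were higher and 0 lower without LPS (median 1.14), and 15 and 0 with LPS (median 1.05). The shares of all genes called higher were 15.9% without LPS and 11.1% with LPS, and 15.3% and 12.7% were called lower. The neutral amino acid carrier Slc1a4 rose by 3.38 ± 0.18, Cth (cysteine synthesis) by 3.10 ± 0.14, Gpt2 (alanine synthesis) by 2.26 ± 0.11 and the cystine carrier Slc7a11 by 1.99 ± 0.11. Asns, which makes asparagine, rose by 0.90 ± 0.072, beside 0.88 for Nars. Psph, the last enzyme of serine synthesis, rose by 1.10 ± 0.084, beside 1.06 for Sars. Asns and Psph were named after their values were seen, and other pairings were less close. Cth rose by 3.10 beside 1.14 for Cars, and Gpt2 by 2.26 beside 1.34 for Aars. Mean signals of Phgdh and Psat1, also of serine synthesis, went from 8607 to 13441 and from 11844 to 13660. A match in size between such genes was not tested. With LPS, Cth (2.82 ± 0.14) and Gpt2 (2.08 ± 0.11) had the largest rises of the list.

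Other parts of the translation machinery moved less. Of 13 cytosolic initiation and elongation factors 5 were higher and 1 lower without LPS, with a median of 0.15, led by the ATF4 target Eif4ebp1 (1.32 ± 0.10). Among all genes 15.9% were higher and 15.3% lower after the fraction without LPS, and 11.1% and 12.7% with LPS. The scaffolds of the multisynthetase complex did not rise: Aimp1 and Eef1e1 were not past the threshold and Aimp2 was lower, at -0.47 ± 0.068 without LPS (adjusted p = 2.9e-05) and -0.34 ± 0.068 with LPS. Aimp2 signals were 3895, 4188 and 4130 in vehicle and 2948, 2875 and 2977 after the fraction, with no overlap. Of 15 mitochondrial translation genes 1 was higher and 1 lower in each LPS state, Mtif2 (0.55 ± 0.10 in each) and Tufm (-0.38 ± 0.094 and -0.47 ± 0.094). After LPS in vehicle cells 0 of these 15 were higher and 5 lower in the deposited scaling, beside 10.1% and 21.8% of all genes. Among the 5 were Gatc (-0.51 ± 0.15), Tsfm (-0.43 ± 0.088) and Gatb (-0.39 ± 0.12). Gatb, Gatc and Qrsl1 form the complex that makes the glutamine-charged tRNA of mitochondria, which have no tRNA synthetase for glutamine of their own. Qrsl1 was at -0.36 ± 0.10. With centring on the tested genes the calls of Gatb, Gatc and Qrsl1 were lost.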

How the data were processed

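Total RNA was labelled with biotin and hybridized to 18 Affymetrix arrays. The authors deposited MAS5 signal intensities on a linear scale for 45101 probe sets, per the submitters' processing notes, and every array had a 2% trimmed mean of 500.0. Raw scans were not used here. The 64 control probe sets were left out. Symbols were updated through a RefSeq table by Entrez ID, and 34945 probe sets had 1 symbol, 932 several and 9160 none. A floor of 1 (reached by 0.823% of values) preceded the log2. Probe sets reaching the array median on at least 3 arrays were kept (25612), and the brightest stood for each of 11547 genes.

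One linear model of 6 group means was fitted with limma 3.58.1 (R 4.3.3, eBayes with trend, 12 residual degrees of freedom). Two-sided p-values were adjusted over all genes by Benjamini and Hochberg, and a gene was called under 0.05. Data were simulated for the fraction without LPS, with 200 of 11547 genes changed. Changes of 0.5 on the log2 scale were recovered in 42.8% of cases and changes of 1 in 75.5%, with 5.48% false calls. Far more genes were called in the data (1837 higher and 1771 lower). The adjusted p depends on the share of changed genes, so these rates do not give the sensitivity of the reported calls.

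The members and lists were chosen with earlier results of these data known, as were the subgroups. Members given array by array were, in each comparison, up to 5 cytosolic and 4 mitochondrial genes with the largest called change and no overlap between groups, and Gars, Kars, Eprs and Wars. Mars1, Tars, Nars and Iars with LPS, Hars, Fars2, Atf4 and Aimp2 were given by array after their values were seen, and Asns, Psph, Eif2ak2, Eif2ak1 and Qrsl1 were named likewise. Otherwise up to 4 genes a list were named by size of change. Brightest probe sets of Farsb, Iars and Wars are of types open to cross-hybridization. Alternatives were quantile normalization, centring on the tested genes or, added after seeing the data, on all probe sets, a pseudocount of 32, other filters (none, 75th percentile), no trend, other probe-set rules, only compared arrays, a replicate block and each array left out.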

Additional observations from a re-analysis of the deposited data

Results flagged for a closer look

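By the interaction test of limma, 9 genes of the surrounding lists had a fraction effect that differed between the LPS states, as did 2.14% of all genes. The 35 synthetases had 0 such calls (1 had an unadjusted p under 0.05), which is near that share. The interaction values, positive where the fraction effect was higher with LPS, were -2.10 for Ddit3, -2.10 for Nupr1, -1.72 for Atf3, -1.44 for Trib3, -1.40 for Slc1a4, -1.39 for Ppp1r15a, -0.89 for Slc7a11, -0.47 for Atf4 and 0.71 for Eif2ak2. Ddit3 signals were 255, 360.2 and 272 in vehicle and 6328, 6951 and 5618 after the fraction, and 410.5, 901 and 588 with LPS alone and 3076, 2875 and 3088 with LPS and fraction. LPS alone raised Ddit3, Nupr1, Atf3, Ppp1r15a, Slc7a11, Atf4, Trib3 and Eif2ak2 in vehicle cells. The Atf4 difference (adjusted p = 0.047) was lost under 16 of 24 alternatives and that of Eif2ak2 (adjusted p = 0.033) under 12 of 24, including the removal of single arrays of all 4 groups.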

How the results depend on the processing

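The 16 counts of called synthetases were recomputed in 192 further settings without leaving out single arrays, and 167 stayed within 1.5 times. Those 167 include every setting of the mixture and interaction counts, which were 0 at first and stayed 0. All counts that moved were of the LPS and fraction comparisons. For LPS in vehicle cells, centring on the tested genes gave 10 cytosolic and 4 mitochondrial calls, centring on all probe sets 1 cytosolic, and quantile normalization 4, the mean of probe sets 3, only the compared arrays 4 and leaving out the 6 arrays numbered 1 4 mitochondrial. For LPS in fraction-treated cells, cytosolic calls were 3 with quantile normalization, 9 and 0 with those centrings and 2 without the arrays numbered 1, and mitochondrial calls were 3 with centring on the tested genes and 4 with the 75th percentile filter or the mean of probe sets. For LPS in mixture-treated cells, cytosolic calls were 1 with centring on all probe sets, no filter, no trend, only the compared arrays or without the arrays numbered 1, and mitochondrial calls 2 and 1 with the centrings. Mitochondrial calls for the fraction were 4 (without LPS) and 5 (with LPS) with a replicate block, and with LPS 5 with the 75th percentile filter and 5 without the arrays numbered 1. With the replicate block the cytosolic counts were 13 without LPS (12 otherwise) and 13 with LPS. Deviations of same-numbered arrays from their group means correlated at 0.026 to 0.170 within comparisons. For all 18 arrays, the deviations correlated best on average with those of arrays of other groups with the same number. This is a hint from the data and not the design, since the labels do not say what a number shares. The main model holds no term for it, so any shared variation stays in its error. With the replicate block, 2123 genes were called higher and 2038 lower for the fraction without LPS, against 1837 and 1771.

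Leaving out single arrays gave 12 to 13 cytosolic and 2 to 4 mitochondrial calls for the fraction without LPS, and 13 to 14 and 2 to 5 with LPS. For LPS it gave 3 to 4 and 3 to 9 in vehicle, 2 to 4 and 5 to 7 in fraction-treated and 1 to 2 and 2 to 4 in mixture-treated cells, and 0 throughout for the mixture and the interaction.

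Of 2783 recomputed values of single genes, 227 lost and 6 gained a call, and 9 reversed: with the mean of probe sets Farsa (0.04 without and 0.36 with LPS), Qars (-0.06 and -0.14) and Eif4ebp1 (0.00, LPS in vehicle cells), Nars with quantile normalization (-0.03, LPS in fraction-treated cells), Vars without the arrays numbered 1 (-0.03, with LPS), and with LPS Farsb and Qars without replicate 2 and 3 of vehicle with LPS (over single arrays left out, Farsb ran from -0.01 to 0.11 and Qars from -0.03 to 0.08). Signal over background limits the dim mitochondrial genes most, Mars2 and Aars2 at 1.32 and 2.98 times the array median.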
